A study of Mus musculus with 6 samples.

Results

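The 10 genes described here are the p53 gene itself (Trp53) and 9 genes known as its transcriptional targets: Mdm2, Trp53inp1, Ccng1, Bax, Sesn1, Aen, Phlda3, Zmat3 and Gdf15. They were chosen by name, with earlier results of these data known, and each is 1 row of a count table of 25239 genes. All 10 passed the filter on low counts and belong to the 15256 genes tested. The RNA came from organoids grown from G4 RosaLuc mouse embryonic stem cells that carry the constructs TRE-Nkx2-1-Pax8 and bTg-NES-BrafV637E-ERT2, and was collected at day 31. In this line doxycycline (1 µg/ml for 5 days) switches on Nkx2-1 and Pax8, the transcription factors of the thyroid lineage, and 8-Br-cAMP for 2 weeks then matures the cells into follicles. The oncogene BrafV637E, the mouse counterpart of the main BRAF mutation of human thyroid cancer, is fused to the estrogen receptor domain ERT2. It is transcribed from the bovine thyroglobulin promoter and acts only when 4-hydroxytamoxifen (4OHT) is present.

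The design had 3 groups of 2 libraries, all of which carried the transgene and 8-Br-cAMP. The cAMP group received no 4OHT. The 4OHT group received 1 µM 4OHT for 5 days according to the labels. The PD+LY group received 1 µM 4OHT together with 250 nM of the MEK inhibitor PD0325901 and 5 µM of the PI3K inhibitor LY204002, the inhibitors for 3 days. The study describes several days of 4OHT without inhibitors before the inhibitors were added to it. Time in 4OHT may therefore differ between the last 2 groups. Since organoids without the fusion gene were not analysed here, 4OHT itself and the oncogene it activates cannot be told apart. The inhibitors were given together, so the part of each cannot be told apart either. The line was derived from selected clones, and the study pooled several wells of follicle-enriched organoids for each RNA sample.

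p53 is a transcription factor held at a low level by Mdm2, a ubiquitin ligase that marks it for degradation and is itself a p53 target. DNA damage, oncogene signalling and other stresses release p53 from this loop, mostly through changes in the protein and not in its mRNA. p53 then binds DNA as a tetramer on paired copies of a short consensus motif and raises genes for cell cycle arrest, apoptosis, DNA repair and metabolic control.

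The libraries held 14898409 to 20637959 counts, so that 3 counts, the floor used here, correspond to 0.15 to 0.20 CPM in these libraries. All levels below are CPM (reads of a gene relative to all reads counted) after scaling by trimmed mean of M values (TMM). All adjusted p-values are from the quasi-likelihood test of edgeR with Benjamini-Hochberg adjustment over the 15256 genes, and a call is an adjusted p under 0.05. Replicates of PD+LY differed most, where chi-square over its degrees of freedom was 17.3, compared with 8.06 in cAMP and 4.47 in 4OHT. Whether replicates came from separate cultures is not stated, so p-values measure the spread between these samples, which may be technical. Markers of several cell types were present and moved with the groups. The summed level of 14 thyroid genes (13 of them above the floor in every library) was 1136 to 1688 CPM in cAMP, 602 to 793 in 4OHT and 1054 to 2064 in PD+LY. Most of it was Tg, with 1566 and 1022 CPM in cAMP, 514 and 693 in 4OHT and 1870 and 907 in PD+LY. Of the 13 thyroid genes tested, 3 were called lower in 4OHT versus cAMP and 8 higher in PD+LY versus 4OHT. The shares of all genes were 4.35% and 10.7%. The sum of 10 pluripotency genes, all above the floor, was 3729 to 3851, 4181 to 4367 and 4299 to 4608 CPM in the same order. Its largest part was Dppa5a, with 1164 and 1131 CPM in cAMP and 1503 and 1573 in PD+LY. In PD+LY versus cAMP 5 of the 10 rose and 2 fell, Tdgf1 and Utf1, against 12.1% and 13.7% of all genes. The sum of 12 mesenchymal genes, also all above the floor, was 1380 to 1520, 2473 to 2618 and 4241 to 4988 CPM. Its genes went both ways, since in PD+LY versus 4OHT 4 rose, the collagen genes Col1a1, Col1a2 and Col3a1 and the matrix gene Postn, and 4 fell, Pdgfrb, Twist1, Vim and Thy1. The sum of 12 epithelial genes, all above the floor, was 1237 to 1349, 949 to 1072 and 843 to 883 CPM. In PD+LY versus cAMP 11 of them fell, against 13.7% of all genes. The exception was Cdh1, the largest part of the sum, with 389 and 382 CPM in cAMP and 434 and 455 in PD+LY. In PD+LY versus 4OHT Cdh1 rose and 9 fell, against 10.7% and 12.1% of all genes. In 4OHT versus cAMP Krt7 rose by 1.05 and 4 fell, against 4.04% and 4.35%. For 10 neural progenitor genes, 8 of them above the floor, the sum was 427 to 456, 220 to 234 and 156 CPM. Lin28a made up much of it, with 342 and 375 CPM in cAMP, 158 and 171 in 4OHT and 74.8 and 65.7 in PD+LY. In PD+LY versus cAMP 2 of the 9 tested rose, Nes and Pax6, and 5 fell, against 12.1% and 13.7% of all genes. Of 10 macrophage genes, Ptprc, Adgre1, C1qa and C1qb were at 0 throughout and 5 were above the floor in every library. Most of their sum (72.6 to 72.9, 63.6 to 72.2 and 35.8 to 39.1 CPM) was Cd68, which had 30.8 and 32.6 CPM in PD+LY. The sums of 10 endothelial and 9 visceral endoderm genes lay between 215 and 249.9 and between 425 and 475 CPM in all libraries, but their genes moved. Most of the endothelial sum was Pecam1, with 128 to 171 CPM. In 4OHT versus cAMP Pecam1 rose and 4 of the 9 tested endothelial genes fell, against 4.04% and 4.35% of all genes. Kdr fell by 2.31 and Cdh5 by 1.47 on the log2 scale. In PD+LY versus cAMP 1 visceral endoderm gene rose and 6 fell, against 12.1% and 13.7% of all genes. The part of these cell types in the results below was not tested, and in bulk RNA fewer cells of a type and less RNA per cell cannot be told apart. Of 11 feedback genes of the MEK and ERK pathway, 9 fell in PD+LY versus 4OHT, where 12.1% of all genes were called lower. In 4OHT versus cAMP 1 of them, Etv4, rose by 0.80 and 3 fell, Dusp6 by 0.72, Etv5 by 0.54 and Spred2 by 0.39, with a list median of -0.34. The ERK phosphatase gene Dusp4, one of the 9, went from 55.4 and 61.7 CPM to 3.41 and 4.28 CPM.

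RefSeq promoter windows of 300 bases (GRCm38.p6, 250 bases before to 50 after a transcript start) were found for 8 of the 10 genes, with 11 windows in all; Zmat3 and Trp53inp1 had no entry. The p53 consensus half-site, searched without mismatch and identical in form on both strands, occurred in 7 of these 11 windows and in 6 of the 8 genes. It occurred in 8.36% of all 32851 promoter windows of the genome. The stretches below show each match in capitals with 15 bases on either side, together with Cdkn1a, the best known p53 target, whose window holds 2 matches separated by 12 bases.
Trp53, chr11:69580269-69580308, plus strand: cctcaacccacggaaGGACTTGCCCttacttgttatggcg
Mdm2, chr10:117710920-117710959, minus strand: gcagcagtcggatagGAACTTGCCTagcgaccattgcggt
Ccng1, chr11:40755447-40755486, minus strand: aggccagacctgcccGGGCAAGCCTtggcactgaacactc
Bax, chr7:45467075-45467114, minus strand: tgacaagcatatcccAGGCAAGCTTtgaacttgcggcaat
Aen, chr7:78895922-78895961, plus strand: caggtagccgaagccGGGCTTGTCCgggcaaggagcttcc
Sesn1, chr10:41887251-41887290, plus strand: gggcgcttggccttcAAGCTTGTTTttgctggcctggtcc
Cdkn1a, chr17:29090891-29090952, plus strand: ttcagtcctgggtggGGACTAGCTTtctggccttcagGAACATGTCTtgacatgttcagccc
Counted from the transcript start, the matches began 75 bases upstream in Trp53, 186 in Mdm2, 185 in Ccng1, 201 in Bax, 173 in Sesn1 and 73 in Cdkn1a. Aen has 2 annotated starts whose windows overlap, so its single match counts in both windows: it begins 121 bases upstream of the start at 78896058 and 10 bases downstream of the start at 78895927. A match is a description of the letters and no evidence of binding. The windows of Phlda3 and Gdf15 held no such match, which says only that the letters are not there. Gdf15 has 2 windows, and the one at the upstream start is shown in full because this gene had the largest fold changes of the 10.
Gdf15, chr8:70632407-70632706, minus strand: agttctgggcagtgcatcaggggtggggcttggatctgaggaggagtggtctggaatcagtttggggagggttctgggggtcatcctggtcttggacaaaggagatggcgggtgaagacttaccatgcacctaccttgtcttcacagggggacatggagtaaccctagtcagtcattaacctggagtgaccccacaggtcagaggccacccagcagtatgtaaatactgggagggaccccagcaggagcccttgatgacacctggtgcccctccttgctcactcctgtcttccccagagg
None of the 11 windows held the AP-1 site TGANTCA (7.81% of all windows) or the ATF4 composite site TGATGNAA (3.97%), motifs that share their first letters. The FOXO site GTAAACA occurred in 1 window each of Mdm2 and Sesn1, against 3.65% of all windows, and overlapped no p53 match. These motifs were picked with the expression values known.

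The 10 genes differed widely in abundance. Per kilobase of exon (GENCODE M21) and averaged over the 2 cAMP libraries, the order was Bax 103 CPM per kb, Trp53 66.0, Ccng1 50.7, Trp53inp1 30.4, Mdm2 24.1, Phlda3 21.9, Aen 14.6, Zmat3 13.2, Sesn1 9.44 and Gdf15 9.10. Replicates of neighbours in this order did not overlap except for Sesn1 and Gdf15. Mdm2 and Phlda3 were nearly adjoining, with a lower Mdm2 library of 23.8 CPM per kb and a higher Phlda3 library of 23.7 CPM per kb. In 4OHT the mean of Gdf15 was 23.9 CPM per kb, between Phlda3 (25.2) and Trp53inp1 (21.5), with replicates that overlapped both. In PD+LY it was the lowest again, at 4.01 CPM per kb. Gdf15 thus moved from the last place to the sixth in 4OHT, and Trp53inp1 from the fourth to the seventh.

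**Figure D1:**
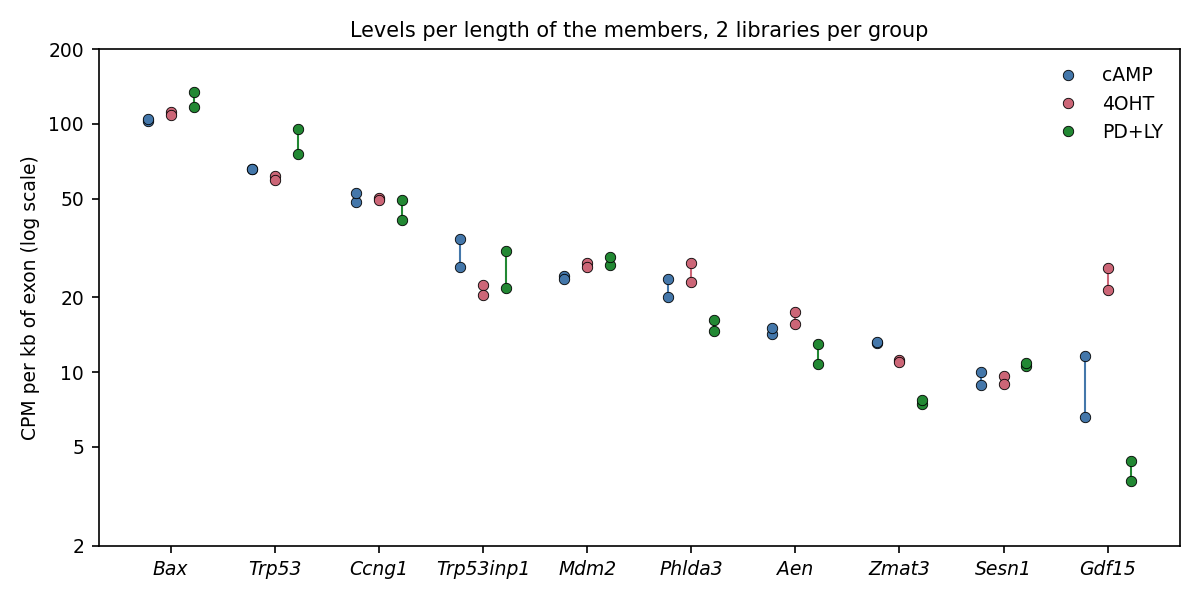
CPM per kb of exon on a log axis for the 10 genes, ordered by their cAMP mean, with 1 point per library and 3 colours for the groups. Gdf15 runs from 3.65 to 26.4 CPM per kb, while the other genes keep to a narrower band in all 6 libraries.

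In organoids given 4OHT, 1 of the 10 genes was called, Gdf15, which rose by 1.38 on the log2 scale over cAMP. Over all genes tested, 8.39% were called in this comparison (4.04% higher and 4.35% lower). The median log2 fold change of the 10 genes was 0.04, and that of all genes was -0.002. The CPM of the groups did not overlap for 7 of the 10 genes, 4 higher and 3 lower in 4OHT, against 58.5% of all genes. When the inhibitors were added to 4OHT, 5 of the 10 genes were called, against 22.7% of all genes. Trp53 rose and Aen, Phlda3, Zmat3 and Gdf15 fell, against 10.7% of all genes higher and 12.1% lower. Their median log2 fold change was -0.05 and that of all genes 0.01, and 8 of the 10 did not overlap between groups (62.3% of all genes). Between PD+LY and cAMP, 5 of the 10 genes were called, with Trp53 and Bax higher and Phlda3, Zmat3 and Gdf15 lower, against 25.7% of all genes (12.1% higher, 13.7% lower). The median was -0.19 against 0.005 for all genes, and 8 of the 10 did not overlap (61.4% of all genes). Single libraries moved these counts. The count in 4OHT versus cAMP was 2 without cAMP replicate 2 and 3 without either PD+LY library, where Trp53inp1 and, in the latter cases, Zmat3 passed too. For PD+LY and 4OHT it was 2 without 4OHT replicate 1 and 3 without 4OHT replicate 2. For PD+LY and cAMP it was 3 without cAMP replicate 1, 2 without cAMP replicate 2, 8 without PD+LY replicate 1 and 3 without PD+LY replicate 2. The 3 comparisons share libraries, so their results are not independent of each other.

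**Figure D2:**
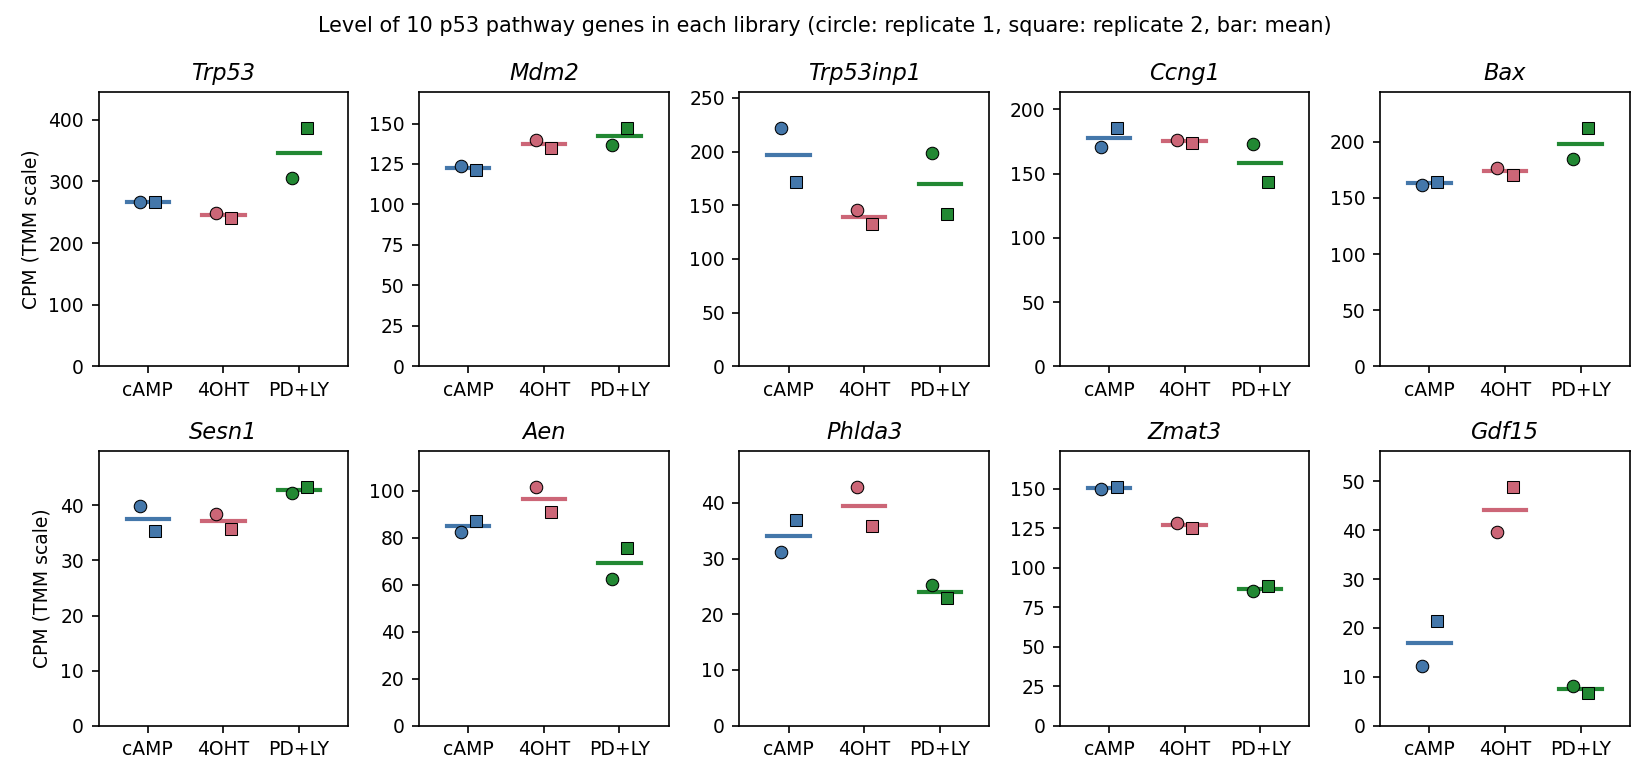
CPM (TMM scale, axes from 0) of each of the 10 genes by group, with a circle for replicate 1, a square for replicate 2 and a bar at the mean. Gdf15 peaks in 4OHT, Zmat3 steps down from cAMP to PD+LY, and the 2 PD+LY libraries of Trp53 lie apart at 305 and 387 CPM.

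Trp53 (chr11:69580359-69591873, plus strand of GRCm38) encodes p53. Its level was 267 and 267 CPM in cAMP, 249 and 241 CPM in 4OHT and 305 and 387 CPM in PD+LY. The PD+LY libraries were above the other 4, but they differed from each other 1.27-fold. The 4OHT libraries lay below both cAMP libraries by a log2 fold change of -0.12 ± 0.11 (SE), which did not pass (adjusted p = 0.539). Trp53 rose in PD+LY versus 4OHT by 0.50 ± 0.11 (SE) on the log2 scale (adjusted p = 0.00715) and against cAMP by 0.37 ± 0.11 (adjusted p = 0.0249). The call against 4OHT was lost without either 4OHT library (adjusted p = 0.0524 and 0.0864). Without the higher PD+LY library the rise was 0.32 against 4OHT and 0.19 against cAMP, and the latter no longer passed (adjusted p = 0.114). The call against cAMP was also lost without either cAMP library (adjusted p = 0.0952 and 0.0880). A processed pseudogene, Trp53-ps, is 94.96% identical to Trp53 over 1170 bases and is not a row of the table, so reads shared with it are uncertain.

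Mdm2 (chr10:117688875-117710758, minus strand) encodes the ubiquitin ligase that restrains p53. Its replicates differed by at most 1.08-fold, with 124 and 121 CPM in cAMP, 140 and 135 CPM in 4OHT and 137 and 147 CPM in PD+LY. Both cAMP libraries were the lowest of the 6, and the other groups overlapped. The log2 fold change in 4OHT versus cAMP was 0.16 (95% interval -0.04 to 0.36, adjusted p = 0.306). That in PD+LY versus 4OHT was 0.05 (-0.15 to 0.25, adjusted p = 0.728). The corresponding value for PD+LY and cAMP was 0.21 (0.01 to 0.41, adjusted p = 0.107), and none of these passed over all genes.

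Ccng1 (chr11:40748552-40755311, minus strand) encodes cyclin G1, which brings a phosphatase to Mdm2. It had 170 and 186 CPM in cAMP, 176 and 174 CPM in 4OHT and 173 and 144 CPM in PD+LY. The 4OHT libraries fell between those of cAMP, and 1 PD+LY library was the lowest of the 6. The log2 fold change was -0.02 in 4OHT versus cAMP (95% interval -0.25 to 0.20), -0.14 in PD+LY versus 4OHT (-0.37 to 0.09) and -0.17 in PD+LY versus cAMP (-0.40 to 0.06). None of these differences passed.

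Trp53inp1 (chr4:11156431-11174379, plus strand) encodes a stress protein that acts with p53 in apoptosis and autophagy. Its replicates differed by up to 1.40-fold, with 222 and 172 CPM in cAMP, 146 and 132 CPM in 4OHT and 198 and 142 CPM in PD+LY. Both 4OHT libraries were below both cAMP libraries, while PD+LY overlapped each of the other groups. The log2 fold change in 4OHT versus cAMP was -0.50 ± 0.16 (SE) and missed the threshold (adjusted p = 0.069). It passed in 7 of 12 alternatives, among them DESeq2 (adjusted p = 0.0244). The difference of PD+LY was 0.29 ± 0.16 from 4OHT (adjusted p = 0.193) and -0.21 ± 0.15 from cAMP (adjusted p = 0.348). These depended on the PD+LY library used: the first was 0.52 without replicate 2 (adjusted p = 0.0131) and 0.03 without replicate 1, and passed in 3 of 12 alternatives. The second was -0.47 without replicate 1 (adjusted p = 0.0209) and 0.015 without replicate 2.

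Bax (chr7:45461697-45466898, minus strand) encodes the protein that forms pores in the outer mitochondrial membrane during apoptosis. It had 162 and 164 CPM in cAMP, 177 and 171 CPM in 4OHT and 184 and 212 CPM in PD+LY. The groups were ordered without overlap, cAMP lowest and PD+LY highest. The steps were small: 0.09 ± 0.10 (SE, log2) in 4OHT versus cAMP (adjusted p = 0.613) and 0.19 ± 0.10 in PD+LY versus 4OHT (adjusted p = 0.169). Over both steps Bax rose by 0.28 ± 0.10 in PD+LY versus cAMP, just inside the threshold (adjusted p = 0.0483). This call was lost in 7 of 12 alternatives, where the adjusted p reached 0.203, and without PD+LY replicate 2 the rise was 0.18 (adjusted p = 0.161). In GENCODE M21, Bax shares 192 exonic bases (12.2% of its total) with Gm45808 on the same strand, a gene that is no row of the table.

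Aen (chr7:78895854-78911209, plus strand) encodes a nuclease that p53 induces in apoptosis. It had 82.3 and 87.2 CPM in cAMP, 101 and 91.0 CPM in 4OHT and 62.4 and 75.7 CPM in PD+LY. The 3 groups did not overlap, with 4OHT highest and PD+LY lowest. The higher level in 4OHT than in cAMP, 0.18 ± 0.12 (SE, log2), did not pass (adjusted p = 0.373). Aen fell in PD+LY versus 4OHT by 0.48 ± 0.12 on the log2 scale (adjusted p = 0.0121), a call that was lost without either 4OHT library (adjusted p = 0.134 and 0.0541). Against cAMP the log2 difference was -0.30 ± 0.12 (adjusted p = 0.0816).

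Phlda3 (chr1:135766119-135769136, plus strand) encodes a small protein that competes with the kinase Akt for membrane lipids. It had 31.2 and 36.9 CPM in cAMP, 42.8 and 35.9 CPM in 4OHT and 25.2 and 22.9 CPM in PD+LY. The PD+LY libraries were the lowest, and cAMP and 4OHT overlapped. The log2 fold change in 4OHT versus cAMP was 0.20 ± 0.14 (SE, adjusted p = 0.414). Phlda3 fell in PD+LY by 0.71 ± 0.14 against 4OHT (adjusted p = 0.00443), a 1.64-fold lower level, and by 0.51 ± 0.14 against cAMP (adjusted p = 0.0215). Without 4OHT replicate 1, the highest library, the first call was lost (-0.57, adjusted p = 0.0679). The second was lost without cAMP replicate 2 (-0.37, adjusted p = 0.196) and without PD+LY replicate 2 (-0.44, adjusted p = 0.0665).

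Sesn1 (chr10:41809935-41908424, plus strand) encodes sestrin 1, an inhibitor of the growth kinase mTORC1. It had 39.8 and 35.4 CPM in cAMP, 38.5 and 35.7 CPM in 4OHT and 42.2 and 43.3 CPM in PD+LY. The PD+LY libraries were slightly above all others, while cAMP and 4OHT overlapped. The log2 fold change was -0.02 in 4OHT versus cAMP (95% interval -0.28 to 0.25), 0.21 in PD+LY versus 4OHT (-0.06 to 0.47) and 0.19 in PD+LY versus cAMP (-0.07 to 0.45), and none passed.

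Zmat3 (chr3:32334792-32366014, minus strand) encodes a zinc finger protein that binds RNA and takes part in the response downstream of p53. Its replicates differed by 1.04-fold at most, with 150 and 151 CPM in cAMP, 128 and 125 CPM in 4OHT and 85.2 and 88.5 CPM in PD+LY. The groups stepped down without overlap. The first step, 4OHT versus cAMP, was -0.25 ± 0.09 (SE, log2) and did not pass (adjusted p = 0.115), although it passed in 3 of 12 alternatives. Zmat3 fell in PD+LY versus 4OHT by 0.55 ± 0.09 (adjusted p = 0.00136) and against cAMP by 0.79 ± 0.09 (adjusted p = 7.87e-05), a level 1.73-fold lower. Both calls were made in 12 of 12 alternatives.

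Gdf15 (chr8:70629393-70632456, minus strand) encodes a secreted stress cytokine of the TGF-beta family, which signals to the brainstem and is a target of p53 and of the stress factors ATF4 and CHOP. It had 12.3 and 21.4 CPM in cAMP (195 and 440 counts), 39.6 and 48.8 CPM in 4OHT (593 and 890 counts) and 8.10 and 6.76 CPM in PD+LY (159 and 139 counts). The groups did not overlap, and the cAMP libraries differed from each other 1.75-fold, the widest ratio among the 10 genes. Gdf15 rose in 4OHT by 1.38 ± 0.22 (SE, log2; adjusted p = 0.0032). It fell in PD+LY versus 4OHT by 2.57 ± 0.24 on the log2 scale, to a level 5.95-fold lower (adjusted p = 3.12e-05). Against cAMP it was also lower, with a log2 difference of -1.19 ± 0.24, or 2.29-fold (adjusted p = 0.00348). All 3 calls were made in 12 of 12 alternatives. Their size moved with the cAMP libraries: without replicate 2 of cAMP the difference from PD+LY was -0.71, under 2-fold, and without replicate 1 the difference of 4OHT from cAMP was 1.04. Gdf15 was the only one of the 10 genes called past 2-fold in any comparison. Over all genes tested, 2.67% were called past this limit in 4OHT versus cAMP, 7.26% when PD+LY was set against 4OHT and 9.24% when it was set against cAMP.

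**Figure D3:**
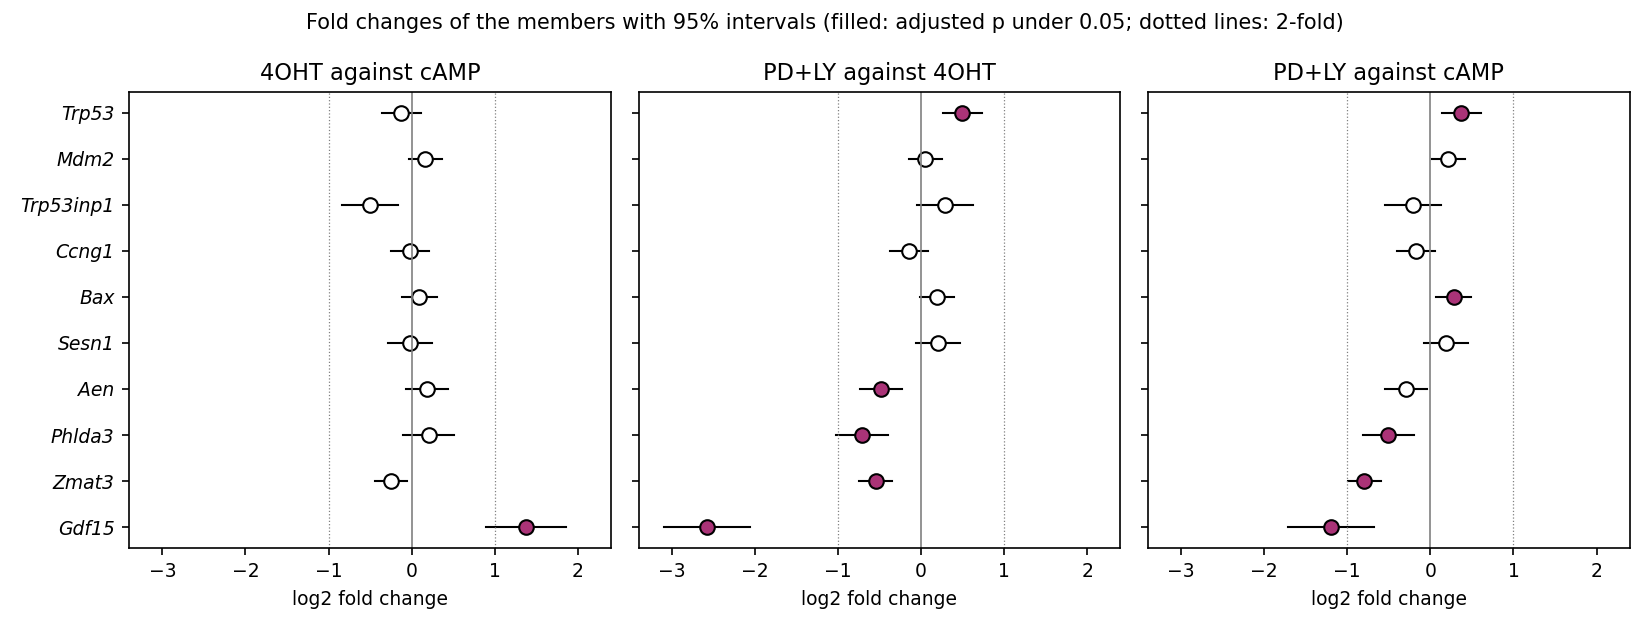
Log2 fold change of each of the 10 genes (points) with its 95% interval (lines) in the 3 comparisons, filled where the adjusted p was under 0.05. Gdf15 is the only point beyond the dotted 2-fold lines, at 1.38, -2.57 and -1.19, and the other 9 genes lie between -0.50 and 0.20 in the first panel.

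Other genes of the pathway, listed by their known roles, were tested in the same fit. Among 49 tested genes of 4 lists of p53 targets (growth arrest, apoptosis, DNA repair and metabolism), 3 rose and 4 fell in 4OHT versus cAMP. With the inhibitors, 4 rose and 16 fell in PD+LY versus 4OHT, and in PD+LY versus cAMP 3 rose and 14 fell. Of all genes, 4.04% were called higher and 4.35% lower in the first comparison, 10.7% and 12.1% in the second, and 12.1% and 13.7% in the third. The median log2 fold changes of the 49 genes were 0.07, -0.18 and -0.09, against -0.002, 0.01 and 0.005 for all genes. Some of these genes have other strong inducers, and the apoptosis list also holds BCL2 family partners of p53 targets.

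Among these lists of p53 targets, the growth arrest list had the highest count of calls. Of its 12 genes, 9 were called in PD+LY versus 4OHT (22.7% of all genes), 8 of them lower (12.1%), with a median log2 fold change of -0.50. Cdkn1a, which encodes the cyclin-dependent kinase inhibitor p21, had 79.8 and 91.9 CPM in cAMP, 123 and 134 CPM in 4OHT and 84.1 and 90.1 CPM in PD+LY. The 4OHT libraries stood above the other 4. Cdkn1a rose in 4OHT by 0.58 ± 0.11 (SE, log2; adjusted p = 0.0067) and fell in PD+LY versus 4OHT by 0.56 ± 0.11 (adjusted p = 0.00294), with 0.02 ± 0.11 between PD+LY and cAMP (adjusted p = 0.907). Antisense transcript AC167363.2 overlaps 273 of its exonic bases, and counting without strand cannot tell them apart. Sfn, which encodes the checkpoint protein 14-3-3 sigma, rose in 4OHT by 0.58 and fell in PD+LY versus 4OHT by 0.67. Ddit4, an mTORC1 inhibitor, fell at both steps, from 240 and 248 CPM in cAMP to 145 and 170 CPM in 4OHT and 41.7 and 42.8 CPM in PD+LY. Its log2 fold change in PD+LY versus 4OHT was -1.90 (adjusted p = 9.75e-07), that of the kinase gene Plk3 was -1.26 and that of Psrc1, a spindle protein gene, was -1.06. Ppm1d, which is counted among the regulators too and encodes the phosphatase Wip1 that switches the p53 response off, went the other way, with -0.53 in 4OHT versus cAMP and 0.73 in PD+LY versus 4OHT, both called. Of the 12 genes 6 were called in PD+LY versus cAMP, all lower (13.7% of all genes), among them Ddit4 (-2.53), Psrc1 (-1.20), Plk3 (-0.77) and Plk2 (-0.53).

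Of 17 tested apoptosis genes, 1 was called in 4OHT versus cAMP and 4 in each PD+LY comparison, all of them lower. Over all genes tested, 8.39%, 22.7% and 25.7% were called. Bbc3, which encodes the BH3-only killer Puma, had 22.5 and 27.2 CPM in cAMP, 34.9 and 36.8 CPM in 4OHT and 15.4 and 22.3 CPM in PD+LY. The 4OHT libraries were the highest, and the difference from cAMP, 0.53 ± 0.17 (SE, log2), did not pass (adjusted p = 0.0852). Bbc3 fell in PD+LY versus 4OHT by 0.93 ± 0.17 (adjusted p = 0.00312). The death receptor gene Eda2r fell by 0.69 in both PD+LY comparisons, and Shisa5 fell by 0.45 against 4OHT. Pmaip1, which encodes Noxa, was called in PD+LY versus cAMP alone (-0.45, adjusted p = 0.0323). The survival genes of the list moved too: Mcl1 fell in all 3 comparisons (-0.41, -0.32 and -0.73), and Bcl2 fell in PD+LY versus cAMP (-1.14).

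Of 9 DNA repair genes, 0 were called in 4OHT versus cAMP by edgeR, 0 had an unadjusted p under 0.05 and 0 were called by DESeq2. In PD+LY versus 4OHT, 2 rose and 2 fell, against 10.7% and 12.1% of all genes. Rrm2b, a ribonucleotide reductase subunit gene, rose by 0.63, and the translesion polymerase genes Polh and Polk fell by 0.88 and 0.57. The same counts, 2 up and 2 down, held in PD+LY versus cAMP (12.1% and 13.7% of all genes), where Rrm2b had 0.97, Polh -0.88 and Polk -0.54. Of 11 tested metabolism genes, 1 was called higher and 1 lower in 4OHT versus cAMP, and 1 was called higher and 2 lower in each PD+LY comparison. Over all genes, 8.39% were called in 4OHT versus cAMP, 22.7% in PD+LY versus 4OHT and 25.7% in PD+LY versus cAMP. The epoxide hydrolase gene Ephx1 rose in 4OHT by 0.59 and fell in PD+LY versus 4OHT by 0.69. The autophagy kinase gene Ulk1 rose in PD+LY by 0.60 against 4OHT and 0.80 against cAMP, Apoe fell by 0.74 and 0.61, and Dram1 fell by 0.53 against cAMP.

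Of 22 regulators of p53, 3 were called in 4OHT versus cAMP and 5 in each PD+LY comparison, where 8.39%, 22.7% and 25.7% of all genes were called. Mdm4, the partner of Mdm2, had 241 and 212 CPM in cAMP, 240 and 246 CPM in 4OHT and 177 and 147 CPM in PD+LY. It fell in PD+LY by 0.59 ± 0.11 (SE, log2) against 4OHT (adjusted p = 0.00267) and by 0.49 ± 0.11 against cAMP (adjusted p = 0.00649). Cdkn2a, whose locus encodes both the Mdm2 inhibitor Arf and the cell cycle inhibitor Ink4a, rose from 5.60 and 5.17 CPM in cAMP to 10.1 and 8.17 CPM in 4OHT and 11.3 and 13.1 CPM in PD+LY. Both groups were above cAMP, by 0.76 ± 0.20 (adjusted p = 0.0398) and 1.19 ± 0.20 (adjusted p = 0.00112). Counts per gene do not separate its transcripts. The nucleolar gene Npm1 fell in 4OHT by 0.38, and the p53 relative Trp73 fell in PD+LY versus cAMP by 1.04. Crebbp, a coactivator gene, rose in PD+LY versus 4OHT by 0.41, and Rchy1, a ubiquitin ligase gene, fell by 0.35.

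The study grouped 6 genes under a p53 pathway term, Inhbb, Lif, Nupr1, Osgin1, Rrad and Vdr, and it chose them on these same libraries, so their direction is not independent evidence. In 4OHT versus cAMP 5 of the 6 rose (4.04% of all genes), and in PD+LY versus 4OHT 4 of the 6 fell (12.1% of all genes). DESeq2, the test the study used, called 6 of the 6 in the first comparison and 4 in the second. Of all 15256 genes it called 1341 and 3158. Nupr1, a stress-induced chromatin protein gene that is also a target of ATF4, had 26.7 and 30.5 CPM in cAMP, 58.6 and 66.6 CPM in 4OHT and 14.0 and 14.1 CPM in PD+LY. Its log2 fold changes were 1.13 and -2.16. Those of Inhbb, an activin subunit gene, were 1.00 and -1.58, those of the cytokine gene Lif 1.09 and -1.46, and those of Osgin1 1.01 and -2.56. Vdr, the vitamin D receptor gene, rose by 1.07 in 4OHT, and its value of -0.61 in PD+LY versus 4OHT did not pass. Rrad had 1.83 and -0.97, neither called by edgeR. Beside these, the 10 genes described first had a median of 0.04 in 4OHT versus cAMP.

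**Figure D4:**
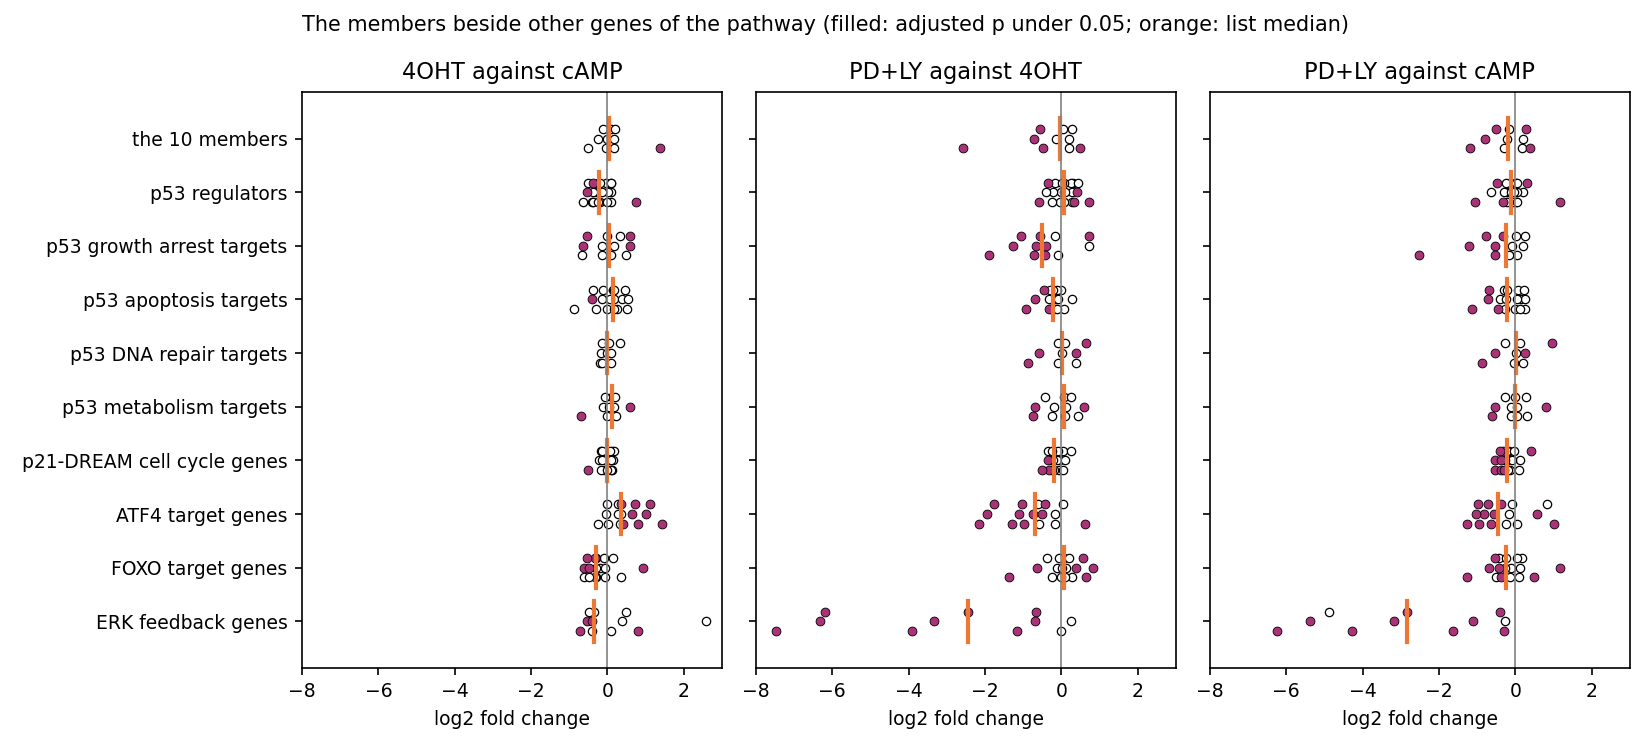
Log2 fold changes of the 10 genes and of 9 further gene lists in the 3 comparisons, 1 point per tested gene, filled where the adjusted p was under 0.05, with the list median as an orange bar. The medians of the 10 genes (0.04, -0.05 and -0.19) lie near 0, that of the growth arrest list is -0.50 in PD+LY versus 4OHT, and the ERK feedback genes reach -2.45 and -2.83 in the PD+LY panels.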

How the data were processed

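Polyadenylated RNA of 6 organoid libraries was sequenced (TruSeq Stranded mRNA). The authors trimmed reads with Trimmomatic, aligned them to mm10 with HISAT2 and deposited raw read counts per gene from HTSeq, without strand; the annotation used for counting is not given in the sources used here. Multiply mapped reads and overlapping genes can lower counts of genes with close copies.

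Groups followed the labels. Counts were tested with edgeR 4.0.16 in R 4.3.3 (TMM, glmQLFit and glmQLFTest over all 6 libraries, 1 coefficient per group). filterByExpr (minimum count 10, minimum total 15) removed 9983 of 25239 genes, 5586 of them without any count. The p-values were adjusted by Benjamini-Hochberg over the 15256 genes kept. Standard errors are the absolute log2 fold change divided by the square root of F, and intervals are 95%. For a single value, 2 libraries against 2 can reach an exact permutation p of 0.3333 at best, so only the fit across all genes was used. The scripts were tested on simulated counts.

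Alternatives were DESeq2 1.42.0, edgeR on 2 groups, DESeq2 size factors, keeping every gene with a count, keeping only genes with 10 counts or more throughout, the replicate number as a block, and each library left out. The 10 genes and all lists were chosen with earlier results of these data known. Named from each list were at most 4 called genes per comparison, by the largest absolute log2 fold change with a mean of at least 50 counts, and always Cdkn1a, Bbc3, Pmaip1, Mdm4, Cdkn2a and the genes the study put under a p53 term. Some genes the rule names are not reported here. Asns was named beyond this rule as the only gene of its list that rose in PD+LY over 4OHT. GENCODE M21 (GRCm38) held 24366 of the 25239 symbols. Similar transcripts were searched with BLAST+ 2.17.0 (at least 90% identity over 300 bases). Promoter windows are from RefSeq.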

Additional observations from a re-analysis of the deposited data

How the results depend on the processing

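Over the 30 log2 fold changes of the 10 genes and 12 alternatives each, 319 of 360 values kept their direction and their side of the threshold, 19 passed it newly, 17 lost it and 5 changed sign. The sign changes were all in values that did not pass: Ccng1 in 4OHT versus cAMP without cAMP replicate 2 (0.045, range -0.086 to 0.045 when a library was left out), Sesn1 in the same comparison without cAMP replicate 1 (0.066) and without 4OHT replicate 2 (0.037, range -0.098 to 0.066), Mdm2 in PD+LY versus 4OHT without PD+LY replicate 2 (-0.0034, range -0.0034 to 0.10) and Trp53inp1 in PD+LY versus cAMP without PD+LY replicate 2 (0.015, range -0.47 to 0.015). The count of genes called in 4OHT versus cAMP, 1 of 10, was 2 with DESeq2, 2 without a filter, 2 with the replicate block and 3 in edgeR on the 2 groups compared, and 1 to 3 when a library was left out. In PD+LY versus 4OHT the 5 calls became 2 to 6 when a library was left out, lowest without 4OHT replicate 1. In PD+LY versus cAMP they became 2 to 8, lowest without cAMP replicate 2 and highest without PD+LY replicate 1, and the count past 2-fold became 0 to 1. The cause of these shifts was not tested. Where a library was left out, the single one remaining in its group was assumed to vary like the others.

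Replicate numbers were shared between groups, and deviations of same-numbered libraries correlated at 0.0718 (cAMP and 4OHT), 0.207 (cAMP and PD+LY) and 0.0586 (4OHT and PD+LY) over genes. Whether same-numbered libraries were paired is not stated, and these correlations cannot decide it. With the replicate block the calls over all genes were 2373, 4742 and 5057 in place of 1280, 3469 and 3925. Over all genes, calls in 4OHT versus cAMP ran from 216 without 4OHT replicate 1 to that blocked count, with 2307 on the 2 groups, 2186 without a filter, and 2314 and 2289 without a PD+LY library. They were 320 without 4OHT replicate 2, and 469 and 597 without cAMP replicate 1 and 2. In PD+LY versus 4OHT they were 1652 and 1198 without 4OHT replicate 1 and 2, and in PD+LY versus cAMP 2494 and 2351 without cAMP replicate 1 and 2. The lowest count of any of the 10 genes in a library was 139 (Gdf15 in PD+LY replicate 2). With 2 libraries per group, small shifts such as those of Mdm2, Bax and Sesn1 lie near what the data resolve.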

Other observations

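Further lists were tested in the same fit. Of 16 target genes of ATF4, the transcription factor of the integrated stress response, 8 rose in 4OHT versus cAMP (4.04% of all genes), among them Cebpb (1.44 on the log2 scale), Nupr1 (1.13, also one of the study's p53 pathway genes), Chac1 (1.00) and Trib3 (0.81). In PD+LY versus 4OHT, 10 fell (12.1% of all genes), with Nupr1 at -2.16, Chac1 at -1.95, Trib3 at -1.77 and Ddit3, which encodes CHOP, at -1.28, while the asparagine synthetase gene Asns rose by 0.62. The list medians were 0.36 and -0.68. In PD+LY versus cAMP 2 rose and 9 fell, against 12.1% and 13.7% of all genes, with a median of -0.46. Gdf15 is a known target of ATF4 and CHOP as well as of p53, and is not counted in this list.

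Of 18 cell cycle genes repressed through p21 and the DREAM complex, 1 was called in 4OHT versus cAMP (Bub1, -0.50), 3 in PD+LY versus 4OHT and 8 in PD+LY versus cAMP, where the shares over all genes were 8.39%, 22.7% and 25.7%. Cdc25c had -0.51 against 4OHT, and Cdc20 -0.52 against cAMP, where E2f1 rose by 0.41. Of 17 FOXO target genes, which PI3K signalling normally represses, 1 rose and 4 fell in 4OHT versus cAMP, 4 rose and 2 fell in PD+LY versus 4OHT, and 2 rose and 5 fell in PD+LY versus cAMP. Over all genes 4.04% rose and 4.35% fell in the first comparison, 10.7% and 12.1% in the second, and 12.1% and 13.7% in the third. The medians of the FOXO list were -0.30, 0.08 and -0.23. Sod2, the mitochondrial superoxide dismutase gene, rose in PD+LY by 0.83 against 4OHT and 1.18 against cAMP. Bcl6 rose in 4OHT by 0.94 and fell in PD+LY versus 4OHT by 1.36, and Ccng2 fell in all 3 comparisons (-0.61, -0.64 and -1.26).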
